A study of Mus musculus with 6 samples.

Results

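Heat shock proteins and cytosolic chaperones were measured in the liver of male C57BL/6 mice at 71 weeks, with 3 libraries from normal chow (control) and 3 from chow containing polypropylene microplastic (PP-MP), particles of a common packaging plastic. C57BL/6 is a common inbred laboratory strain, and strain, sex, age and tissue were shared by both groups. The 36 genes were taken by name, with no measured value in the rule. The list itself was chosen with earlier results of these data known. Each gene was found on 1 row of the 56674 rows of the count table. All 36 were among the 18284 genes that passed the filter on low counts. The series asks whether long intake of PP-MP alters gene expression in the liver. Groups follow the sample titles and the treatment characteristic. The protocol text of all 6 samples, controls too, instead reads PS-MP, a mismatch that could not be settled. No source used here gives a dose, a particle size or the length of exposure. Nothing in the labels says that replicates were separate animals, so each p-value reflects only how these libraries spread, which may be technical.

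Chaperones bind unfolded or partly folded proteins and help them to reach or regain their structure. In the heat shock response, misfolded protein releases the transcription factor HSF1, which binds heat shock elements (alternating GAA and TTC units spaced by a pair of bases) and raises transcription of inducible chaperones such as Hspa1a, Hspa1b, Hspb1, Hsph1 and Dnajb1. HSP70 proteins are guided by J-domain partners and reset by nucleotide exchange factors. HSP90 matures kinases and hormone receptors with a set of co-chaperones, and the barrel-shaped chaperonins fold actin and tubulin (the CCT complex of the cytosol) or imported enzymes (HSPD1 with HSPE1 in mitochondria). Liver cells make much of the constitutive forms, since they synthesise and secrete large amounts of protein.

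Promoter windows show which of the genes hold the letters of a heat shock element, the sequence that the inducible genes of this group are known for. Windows from 250 bases before to 50 bases after each annotated start were taken from RefSeq (GRCm38.p6), another build than the GRCm39 of the counts. Of the 36 genes 27 matched, with 35 windows, and no entry matched Hsf1, Hspa8, Hspa9, Hspa13, Cryab, Hsp90aa1, Hsp90ab1, St13 or Cct4. A run of at least 2 units, GAANNTTC or TTCNNGAA (each its own reverse complement, so both strands were covered), stood in a window of 14 of the 27 genes, 51.85%, against 14.2% of the 11760 tested genes with a window. At least 3 units, GAANNTTCNNGAA or its reverse complement TTCNNGAANNTTC, which also contain the shorter motifs, stood in 4 of the 27, 14.81%, against 0.5527% of tested genes. These 4 were Chordc1 with a run of 5 units, Hspd1 and Hspe1 with 4 and Hsph1 with 3. Hspd1 and Hspe1 hold the same run on opposite strands, and Hspa1a and Hspa1b have nearly equal stretches. The members' shares therefore count some sequence more than once. A match is a description of the letters only and does not show that HSF1 binds there.

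The stretches below run from 150 bases before the start to 30 bases from the start on, 5′ to 3′ in the direction of each gene, with units in a run of 2 or more in capitals, spacer bases included. The first 4 genes hold the longest runs, and the last 3 are an inducible HSP70 and 2 of the genes with the smallest p-values between the diets. Positions are chr9:18292117-18292296 on the plus strand for Chordc1, chr1:55087903-55088082 on the minus strand for Hspd1, chr1:55087998-55088177 on the plus strand for Hspe1, chr5:149636286-149636465 on the minus strand for Hsph1, chr17:34959209-34959388 on the minus strand for Hspa1b, chr5:135887769-135887948 on the plus strand for Hspb1 and chr3:152193816-152193995 on the minus strand for Dnajb4.
Chordc1: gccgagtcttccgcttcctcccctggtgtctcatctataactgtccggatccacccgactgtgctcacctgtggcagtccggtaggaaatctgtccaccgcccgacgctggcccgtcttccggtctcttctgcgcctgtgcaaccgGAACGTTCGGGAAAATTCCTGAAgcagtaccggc
Hspd1: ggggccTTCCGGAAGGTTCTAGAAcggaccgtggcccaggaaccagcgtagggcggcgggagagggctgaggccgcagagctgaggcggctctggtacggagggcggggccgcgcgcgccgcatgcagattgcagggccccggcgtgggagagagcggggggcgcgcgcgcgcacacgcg
Hspe1: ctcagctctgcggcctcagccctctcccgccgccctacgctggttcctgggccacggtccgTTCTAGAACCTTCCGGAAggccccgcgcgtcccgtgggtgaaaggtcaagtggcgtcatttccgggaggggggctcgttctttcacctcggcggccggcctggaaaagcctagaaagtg
Hsph1: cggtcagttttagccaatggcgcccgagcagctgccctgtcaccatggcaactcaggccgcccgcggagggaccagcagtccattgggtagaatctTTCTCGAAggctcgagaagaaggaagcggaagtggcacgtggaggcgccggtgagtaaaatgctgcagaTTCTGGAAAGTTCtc
Hspa1b: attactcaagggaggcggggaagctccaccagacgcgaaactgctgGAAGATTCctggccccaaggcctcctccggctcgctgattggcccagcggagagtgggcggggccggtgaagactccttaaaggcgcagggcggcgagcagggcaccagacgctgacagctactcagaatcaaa
Hspb1: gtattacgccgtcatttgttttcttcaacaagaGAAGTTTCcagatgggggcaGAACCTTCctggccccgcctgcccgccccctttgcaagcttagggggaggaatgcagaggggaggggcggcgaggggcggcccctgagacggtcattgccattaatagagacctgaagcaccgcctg
Dnajb4: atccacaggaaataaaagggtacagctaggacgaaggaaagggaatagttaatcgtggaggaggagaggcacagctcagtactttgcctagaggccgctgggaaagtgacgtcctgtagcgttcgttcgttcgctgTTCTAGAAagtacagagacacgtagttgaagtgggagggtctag
The run of Hspd1, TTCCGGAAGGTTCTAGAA, and that of Hspe1, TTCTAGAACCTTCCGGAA, are the same bases read from either strand, since these genes point away from each other with 216 bases between this Hspd1 start and that of Hspe1. The other annotated start of Hspd1 lies beyond the Hspe1 start, so the models overlap there, and its window holds no run. The stretches of Hspa1a and Hspa1b differed at 2 of 180 positions. The run of Chordc1, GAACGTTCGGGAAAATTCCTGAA, lies across its start.

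Depth was 68357478 to 112566641 counts per library, and no pair within a diet looked like 1 library deposited again (chi-square divided by degrees of freedom from 154 to 928). Levels are given as CPM (counts scaled to a common library size), with library sizes multiplied by TMM factors, and tests are edgeR quasi-likelihood tests with Benjamini-Hochberg adjustment over all 18284 genes. Hepatocyte markers were present in every library, with Alb at 47022 to 58012 CPM. Control 2 held 11.2% of its counts on 18S ribosomal RNA against 0.655% to 2.92% elsewhere. PP-MP 1 had an acute phase list sum of 24226 CPM against 5480 to 6744 CPM in the other 5 libraries. The labels name no batch, and diet and an unnamed batch cannot be told apart.

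Of the 36 chaperone genes, 0 passed the edgeR threshold of an adjusted p of 0.05, where 0.0109% of all genes did. The smallest adjusted p was 0.24 (Hspb1). An unadjusted p under 0.05 was given to 4 of them, 2 higher (Hspa8 and Dnajb4) and 2 lower (Hspb1 and Trap1) with PP-MP, against 13.9% of all genes (8.05% higher, 5.81% lower). The groups did not overlap for 6 of them, 3 higher (these 2 and Hsf1) and 3 lower (these 2 and Hspa9), against 22% of all genes (12.2% higher, 9.79% lower). The members' shares, 11.1% and 16.7%, lay below those of all genes in this fit, while over the alternatives the first lay above in 8 settings and below in 7, and the second above in 3 and below in 10. DESeq2 called 1 of the 36, Hspa8, where it called 3.35% of the genes it adjusted, and limma-voom called 0. Fitted values were higher with PP-MP for 16 genes and lower for 20, where 52.6% of all genes were fitted higher, with a median log2 fold change of −0.05 beside 0.03 over all genes tested. The 95% interval of the fold change lay within 2-fold for 33 of the 36, against 46.3% of all genes, and reached a median of 0.40 on the log2 scale to either side, against 0.73 over all genes. When TMM factors were left out and raw library totals used, the median of all genes moved from 0.03 to 0.26 and that of the chaperones from −0.05 to 0.18. With totals the members without overlap were 12 higher and 1 lower in place of 3 and 3 (36.1% against 27.1% of all genes), and those with an unadjusted p under 0.05 were 5 higher and 1 lower in place of 2 and 2 (16.7% against 18.7%). Hspa8, Dnajb4, Hsf1 and Hspb1 were apart with either scaling, and Hspa9 and Trap1 with TMM factors but not with totals.

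**Figure D1:**
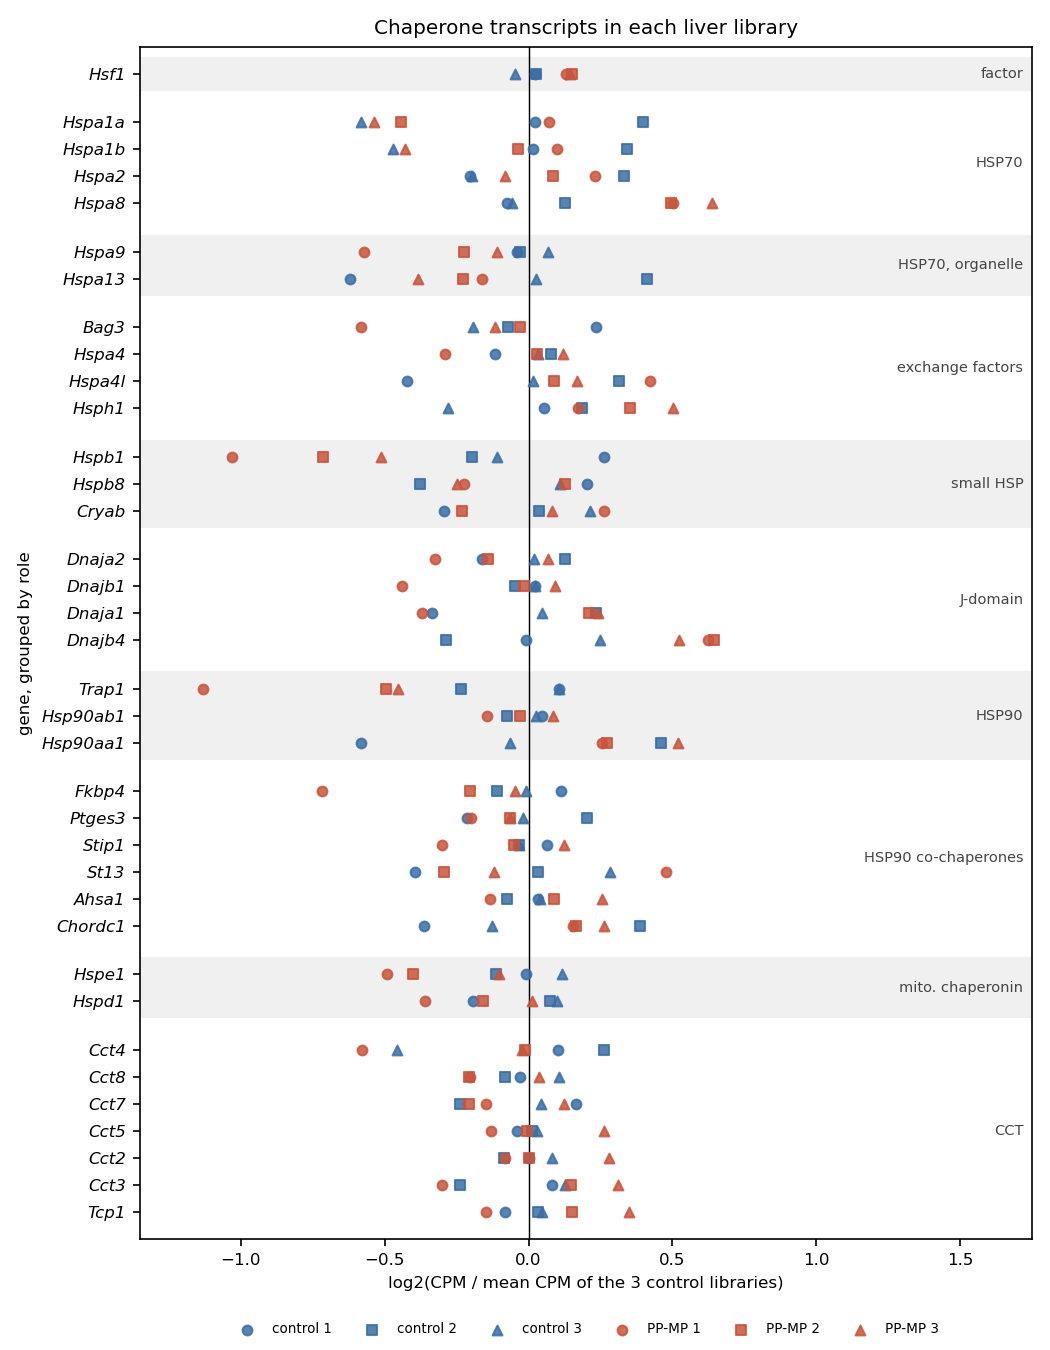
Log2 ratio of the CPM in each library to the mean CPM of the 3 control libraries (x axis, no unit), for 36 chaperone genes grouped by role (y axis), with control in blue and PP-MP in red and replicates 1, 2 and 3 as circles, squares and triangles. Groups are apart for Hspa8, Dnajb4 and Hsf1 on the higher side and Hspb1, Trap1 and Hspa9 on the lower side, and overlap for the other 30 genes.

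**Figure D2:**
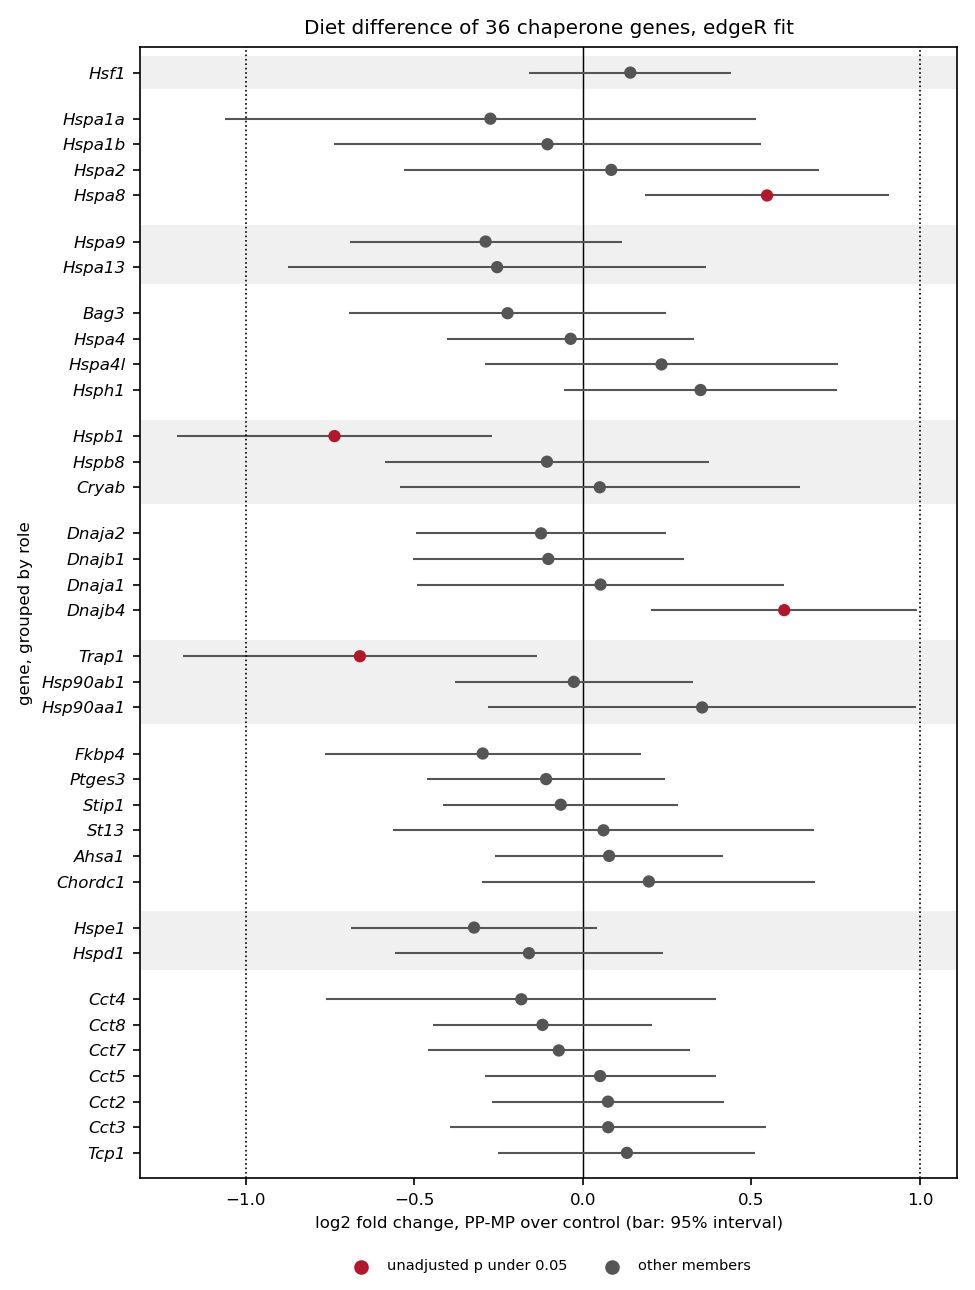
Log2 fold change of PP-MP over control from the edgeR fit (x axis), with 95% intervals as bars, for the 36 genes by role (y axis), and dotted lines at a 2-fold difference either way. The 4 genes with an unadjusted p under 0.05 are red, and the intervals of Hspb1, Trap1 and Hspa1a cross the lower dotted line.

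Hsf1, the transcription factor of the response, was slightly higher with PP-MP in every library. Its level was 10.6, 10.7 and 10.2 CPM on normal chow and 11.5, 11.6 and 11.6 CPM on PP-MP chow. The groups did not overlap, but the interval of the log2 fold change, 0.14, spans 0 (SE 0.13, 95% interval −0.16 to 0.44, edgeR adjusted p = 0.64). With library totals the value was 0.37, with an adjusted p of 0.22.

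Among the cytosolic HSP70 genes, Hspa8 was higher in every PP-MP library while the inducible pair overlapped between the diets, and the difference between them was not tested. Hspa8, the constitutive HSC70 that folds new proteins and uncoats clathrin vesicles, was at 631, 726 and 640 CPM on normal chow and 942, 938 and 1036 CPM on PP-MP chow. The lowest PP-MP library lay well above the highest control library. The log2 fold change was 0.55 (SE 0.15, 95% interval 0.19 to 0.91, edgeR adjusted p = 0.25), and DESeq2, which gave an adjusted p of 0.032, called it. Over all alternatives the adjusted p of Hspa8 ranged from 0.032 to 0.50 and its log2 fold change from 0.50 to 0.78. The difference was as large without PP-MP 1 and control 2, the libraries that stood apart (0.64). Hspa8 is known as a host gene of small nucleolar RNAs, and 34.58% of the 50-base words of its transcripts also occur in the processed pseudogene Gm15459, which carried 15.7% to 17.4% of the Hspa8 count in each library. The sum of the pair was 775 ± 56.1 CPM on normal chow and 1125 ± 63.2 CPM on PP-MP chow (SD, n = 3 per group), again without overlap.

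Hspa1a and Hspa1b, the stress-inducible HSP70 genes, had a low CPM in every library. Hspa1a was at 2.14, 2.77 and 1.41 CPM on normal chow and 2.21, 1.55 and 1.45 CPM on PP-MP chow, and its groups overlapped throughout (log2 fold change −0.27, SE 0.33, edgeR adjusted p = 0.73, and −0.03 with library totals). For Hspa1b the control libraries held 5.52, 6.92 and 3.94 CPM and the PP-MP libraries 5.85, 5.32 and 4.05 CPM. These overlapped as well (log2 fold change −0.11, SE 0.27, edgeR adjusted p = 0.88, and 0.14 with library totals). The pair share 58.81% and 62.31% of their 50-base words with each other. How reads that match both genes were counted is not given. If they were dropped, the sum of the pair is too low as well, so the split, the sum and the level are uncertain. The ratio of Hspa8 to the sum of the pair was 74.9 to 120 in control libraries and 117 to 188 in PP-MP libraries, ranges that overlap. Hspa2, known for its part in spermatogenesis, was at 1.70 ± 0.382 CPM on normal chow and 1.80 ± 0.193 CPM on PP-MP chow (SD, n = 3 per group, log2 fold change 0.08).

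Nucleotide exchange factors reset HSP70 after each cycle. Hsph1, an inducible HSP110 with a 3-unit element near its start, was at 19.3, 21.2 and 15.3 CPM on normal chow and 21.0, 23.8 and 26.3 CPM on PP-MP chow. Control 2 reached just above the lowest PP-MP library, and the log2 fold change was 0.35 (SE 0.17, 95% interval −0.06 to 0.76, edgeR adjusted p = 0.42), or 0.58 and without overlap when library totals were used. Bag3, which links HSP70 to the small heat shock proteins and to selective autophagy, was at 29.3, 23.7 and 21.8 CPM on normal chow and 16.6, 24.4 and 23.0 CPM on PP-MP chow. Its groups overlapped, with the lowest value in PP-MP 1 (log2 fold change −0.22, SE 0.20, and 0.01 with library totals). The other HSP110 genes gave fitted log2 values of −0.04 (SE 0.15) for Hspa4, at 92.8 ± 6.43 CPM in control libraries, and 0.23 (SE 0.22) for Hspa4l, and Hspa4 was at 0.20 with library totals. Hspa4l, an HSP110 form best known from testis, was at 7.55, 12.6 and 10.2 CPM on normal chow and 13.6, 10.8 and 11.4 CPM on PP-MP chow, and control 2 lay inside the PP-MP range, though not with library totals (0.48).

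Small heat shock proteins hold unfolded proteins in a soluble state without using ATP. Hspb1 (HSP25), the inducible member that also stabilises actin filaments, was at 31.4, 22.8 and 24.3 CPM on normal chow and 12.8, 15.9 and 18.3 CPM on PP-MP chow. Each PP-MP library lay below each control library. The log2 fold change was −0.74 (SE 0.20, 95% interval −1.20 to −0.27), the smallest p of the 36 genes, with an edgeR adjusted p of 0.24 that ranged from 0.061 to 0.48 over the alternatives. The log2 value ran from −0.87 to −0.57 with 1 library left out and was −0.51 with library totals. A pseudogene, Hsp25-ps1, shares 48.83% of the 50-base words of Hspb1 and carried 6.66% to 16.1% of its count. The summed level was 29.2 ± 5.88 CPM on normal chow and 17.6 ± 3.62 CPM on PP-MP chow (SD, n = 3 per group), also without overlap. Hspb8, the partner of BAG3, was far more abundant, at 101 to 151 CPM on normal chow and 110 to 143 CPM on PP-MP chow (log2 fold change −0.11, SE 0.20, and 0.12 with library totals). Cryab, the alpha-B crystallin known from lens and muscle, gave 2.33 ± 0.405 CPM on normal chow and 2.42 ± 0.406 CPM on PP-MP chow (SD, n = 3 per group, log2 fold change 0.05).

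J-domain proteins bring clients to HSP70 and trigger its ATPase. Dnajb4, whose product (HLJ1) acts with cytosolic HSP70, was at 17.9, 14.8 and 21.4 CPM on normal chow and 27.7, 28.2 and 25.9 CPM on PP-MP chow. The groups were apart, and the PP-MP libraries lay close together. The log2 fold change was 0.60 (SE 0.17, 95% interval 0.20 to 0.99), with an edgeR adjusted p of 0.25 that ranged from 0.13 to 0.48 over the alternatives. Its transcripts share no 50-base word with those of another gene. Dnajb1 (HSP40), the classic heat-inducible J-domain gene, was at 19.2, 18.3 and 19.2 CPM on normal chow and 13.9, 18.7 and 20.1 CPM on PP-MP chow. Its PP-MP values enclosed the control values (log2 fold change −0.10, SE 0.17, edgeR adjusted p = 0.81, and 0.13 with library totals). Dnaja1 and Dnaja2, abundant partners of HSC70, ran from 120 to 178 and from 81.9 to 99.9 CPM in the control libraries. Their fitted log2 values were 0.05 (SE 0.23) for Dnaja1 and −0.12 (SE 0.16) for Dnaja2, the latter 0.11 with library totals.

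**Figure D3:**
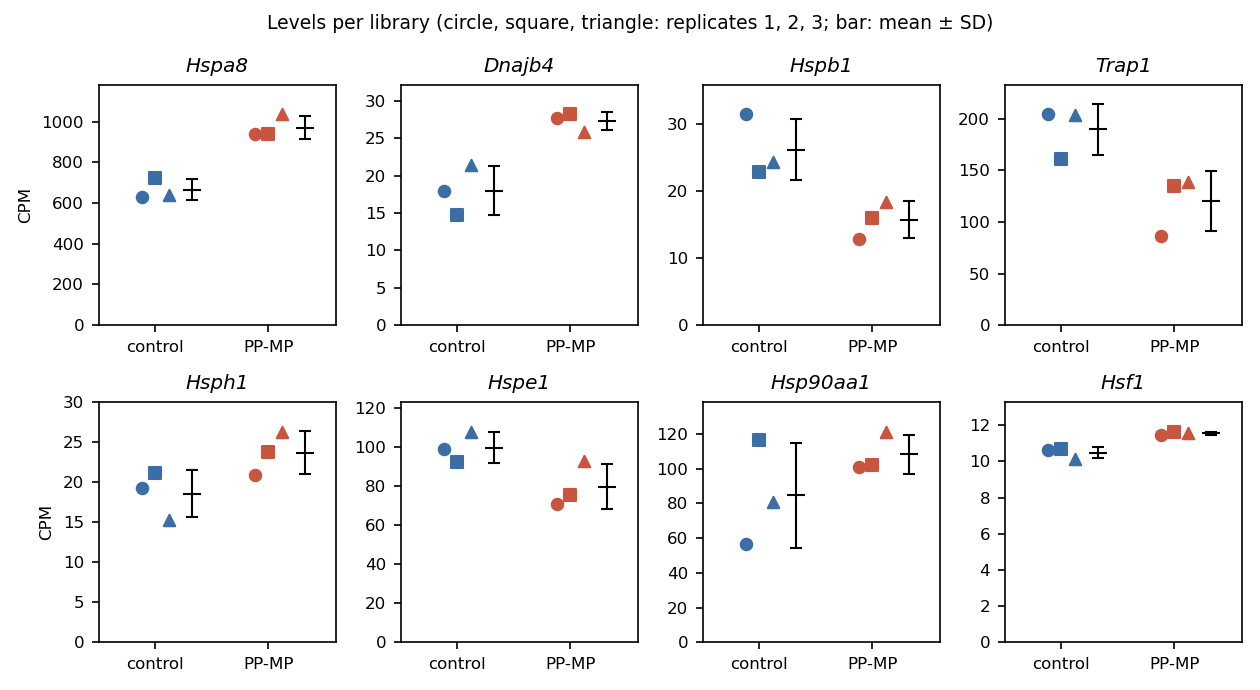
Level in CPM (y axis, linear from 0) of 8 chaperone genes in each library by diet (x axis), with replicates 1, 2 and 3 as circles, squares and triangles and the mean ± SD of the 3 libraries of a diet as a bar. Hspa8, Dnajb4, Hspb1, Trap1 and Hsf1 have groups that do not overlap, while Hsp90aa1 runs from 56.5 to 116 CPM within control.

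The groups overlapped for both cytosolic HSP90 genes, and with library totals for neither. Hsp90ab1, the constitutive form, was at 732, 674 and 722 CPM on normal chow and 642, 695 and 752 CPM on PP-MP chow. The PP-MP libraries spanned the control range (log2 fold change −0.03, SE 0.15, 95% interval −0.38 to 0.33, edgeR adjusted p = 0.95, and 0.20 with library totals). Hsp90aa1, the inducible form, was at 56.5, 116 and 81.1 CPM on normal chow and 101, 102 and 121 CPM on PP-MP chow. Control 2 lay among the PP-MP libraries, and the fitted log2 value, 0.35 (SE 0.27, edgeR adjusted p = 0.58), was 0.67 without control 2, 0.15 without control 1 and 0.60 with library totals. Hsp90aa1 made up 7.17%, 14.7% and 10.1% of the sum of both genes in control and 13.6%, 12.8% and 13.9% in PP-MP, while that sum was 794 ± 7.68 and 804 ± 65.6 CPM (SD, n = 3 per group). Of the 50-base words of Hsp90aa1, 41.79% occur in the pseudogene Gm12346, which carried at most 1.68% of its count.

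None of the 6 HSP90 co-chaperones had an unadjusted p under 0.05. Fkbp4 (FKBP52), an immunophilin of steroid receptor complexes, was at 123, 105 and 113 CPM on normal chow and 68.9, 98.4 and 110 CPM on PP-MP chow. PP-MP 1 was the lowest library and the groups overlapped (log2 fold change −0.30, SE 0.20, edgeR adjusted p = 0.53). Leaving out PP-MP 1 gave −0.12, and library totals gave −0.07. Chordc1, with the longest element among the promoter windows, was at 14.9 to 25.1 CPM on normal chow and 21.4 to 23.0 CPM on PP-MP chow (log2 fold change 0.20, SE 0.21, and 0.44 with library totals). Stip1 (HOP), which joins HSP70 to HSP90, was at 46.7 ± 1.85 CPM in control libraries, with a log2 fold change of −0.07 (SE 0.15). Values were 0.08 (SE 0.14) for Ahsa1, the activator of the HSP90 ATPase, −0.11 (SE 0.15) for Ptges3 (p23), and 0.06 (SE 0.26) for St13, the HSP70-interacting protein HIP. The control libraries held 58.6 ± 2.58 CPM of Ahsa1, 77.1 ± 11.2 CPM of Ptges3 and 43.3 ± 9.89 CPM of St13 (SD, n = 3). With library totals the log2 value was 0.16 for Stip1, 0.31 for Ahsa1, 0.13 for Ptges3 and 0.30 for St13. The groups of Ahsa1 and Chordc1, which overlapped with TMM factors, were then apart, with PP-MP higher. St13 was highest in PP-MP 1 at 60.3 CPM and lowest in control 1 at 32.9 CPM.

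The 4 listed genes that work inside mitochondria, drawn together here from 3 roles after their values were seen, had fitted values below 0, where 52.6% of all genes were above. Mitochondrial chaperone and protease genes of the wider list described further on, picked after their values were seen, lay on both sides of 0. Above it were, among others, Grpel2 (0.56), Dnajc19 (0.12) and Dnajc15 (0.02). Below it were, among others, Clpb (−0.74), Clpx (−0.72), Lonp1 (−0.56), Dnaja3 (−0.24), Grpel1 (−0.23) and Clpp (−0.18). Dnajc11 (−0.05), Dnajc30 (−0.04) and Hscb (−0.01) were below it as well. With library totals the 4 values shrank to −0.44 for Trap1, −0.10 for Hspe1 and −0.06 for Hspa9, and Hspd1 turned to 0.07. Trap1, the mitochondrial HSP90, was at 204, 161 and 204 CPM on normal chow and 86.7, 135 and 139 CPM on PP-MP chow. No PP-MP library reached the control range, and PP-MP 1 was the lowest, while with library totals PP-MP 2 and PP-MP 3 lay above control 2. The log2 fold change was −0.66 (SE 0.22, 95% interval −1.19 to −0.14), with an edgeR adjusted p of 0.30 that ranged from 0.16 to 0.58 over the alternatives, and it was −0.47 without PP-MP 1.

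Hspa9 (mortalin), the HSP70 of the mitochondrial matrix and of protein import, was at 408, 411 and 439 CPM on normal chow and 282, 359 and 389 CPM on PP-MP chow. Its groups did not overlap with TMM factors but did with library totals (log2 fold change −0.29, SE 0.17, edgeR adjusted p = 0.48). Without PP-MP 1 the value was −0.17. Hspe1, the lid of the chaperonin, was at 98.9, 92.1 and 108 CPM on normal chow and 70.8, 75.3 and 92.8 CPM on PP-MP chow. PP-MP 3 reached just into the control range (log2 fold change −0.32, SE 0.15, edgeR adjusted p = 0.41). Hspd1, the barrel of the same chaperonin and its divergent neighbour in the genome, was at 262, 316 and 321 CPM on normal chow and 234, 269 and 302 CPM on PP-MP chow. Those ranges overlapped (log2 fold change −0.16, SE 0.17, edgeR adjusted p = 0.69). The ratio of Hspd1 to Hspe1 was 2.65 to 3.43 in control libraries and 3.26 to 3.57 in PP-MP libraries. A pseudogene, Hspd1-ps3, holds 37.98% of the 50-base words of Hspd1 and carried 1.37% to 4.83% of its count. Averaged over these 4 genes, log2 CPM relative to the control mean stood at −0.63, −0.32 and −0.16 in PP-MP 1, 2 and 3, with control at −0.07 to 0.10. The largest step was in PP-MP 1, the library with the high acute phase sum, and its part in the result was not tested. Hspa13, an HSP70 relative of microsomes, ran from 13.8 to 28.2 CPM on normal chow and from 16.3 to 19.0 CPM on PP-MP chow (log2 fold change −0.25, SE 0.26, and 0.02 without control 2).

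Subunits of the cytosolic chaperonin CCT had nearly equal means on both diets. Its 7 subunits in the list summed to 546, 522 and 549 CPM on normal chow and 468, 531 and 618 CPM on PP-MP chow. PP-MP 1 held the lowest and PP-MP 3 the highest sum, and the group means were 539 ± 14.8 and 539 ± 75.2 CPM (SD, n = 3 per group). Log2 fold changes ran from −0.18 (Cct4) to 0.13 (Tcp1), 4 above and 3 below 0, and all 7 intervals lay within 2-fold. Between them lay Cct8 (−0.12, SE 0.14), Cct7 (−0.07, SE 0.16), Cct5 (0.05, SE 0.14), Cct2 (0.07, SE 0.14) and Cct3 (0.08, SE 0.20). Single subunits stood at 54.6 CPM (Cct4) to 107 CPM (Cct8) in the control mean, with Cct3 at 62.5, Cct7 at 68.1, Cct2 at 77.7, Tcp1 at 83.8 and Cct5 at 84.6 CPM. With library totals all 7 values were above 0, from 0.05 for Cct4 to 0.36 for Tcp1. Adjusted p-values of the 7 ran from 0.71 to 0.90 in edgeR.

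Levels per length of exon (GENCODE M21) were ranked among the 36 genes only, and chaperones outside the list were not ranked. The length merges all annotated exons of a gene, from 1.03 kb for Hspb1 to 11.8 kb for Hspa4l. It can exceed that of any single transcript, so the order depends in part on the annotation. Hsp90ab1 led in control with 236 CPM per kb, followed by Hspa8 with 155, Hspd1 with 113, Hspa9 with 97.3, Trap1 with 73.8, Hspe1 with 67.6 and Hspb8 with 67.2. In PP-MP the first 2 were at 232 and 226 CPM per kb, and Trap1 was at 46.7. The Hspa8 level leaves out the counts on its pseudogene Gm15459, so the order of the first 2 in PP-MP depends on that split. The inducible pair Hspa1a and Hspa1b stood near the other end in control, at 0.709 and 1.95, and Hspa2 was lowest at 0.642. The values of the pair carry the uncertainty from shared words given above. Other inducible genes were higher in control, with Hspb1 at 25.4, Hsp90aa1 at 21.5, Dnajb1 at 5.89 and Hsph1 at 2.56. The 36 genes together took 3991 ± 97.4 CPM on normal chow and 4074 ± 402 CPM on PP-MP chow (SD, n = 3 per group). Of that sum Hspa8 took 16.3%, 18.0% and 15.7% on normal chow and 25.7%, 22.9% and 23.2% in PP-MP, with a gap between the groups. Hsp90ab1 took 16.7% to 18.9% and 16.8% to 17.5%. These shares do not depend on the scaling of libraries.

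**Figure D4:**
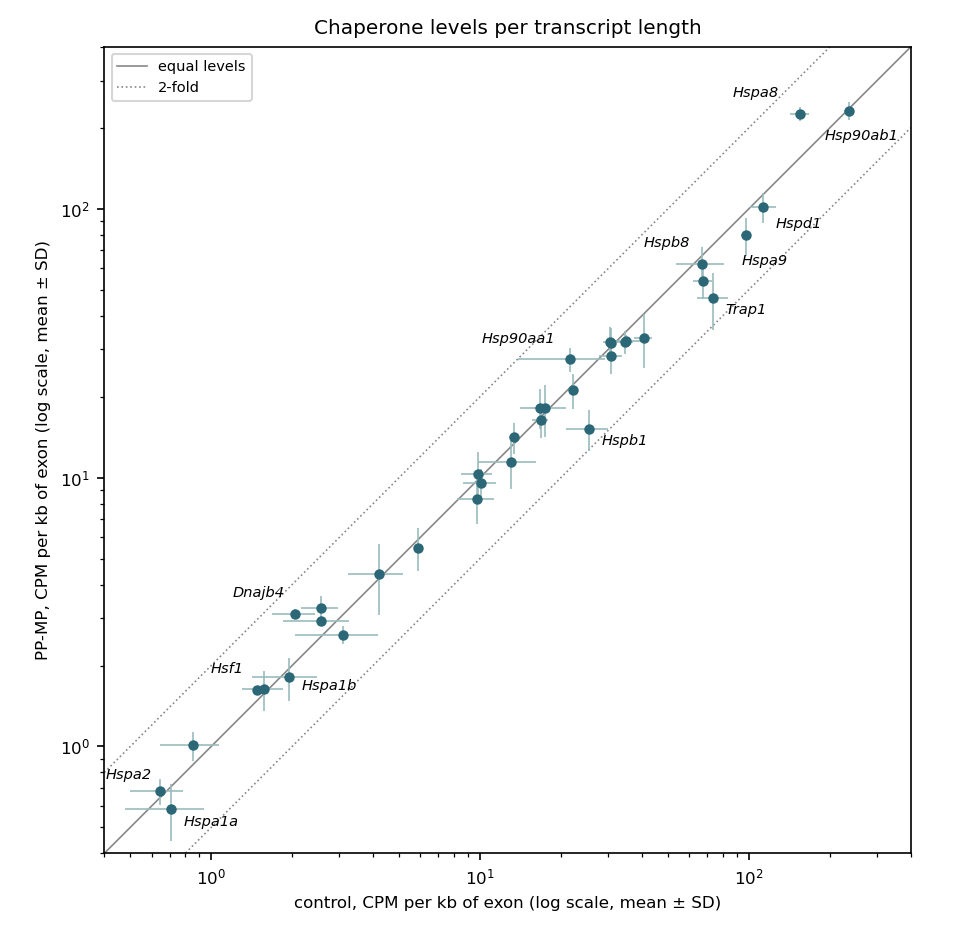
Mean level per kb of exon in PP-MP (y axis, CPM per kb, log scale) against control (x axis, same unit and scale) for 36 chaperone genes, with SDs of 3 libraries as bars, a line of equal levels and dotted lines at 2-fold. All points lie between the dotted lines, with Hspa8 and Dnajb4 above the line of equal levels and Trap1 and Hspb1 below it.

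The 14 genes with a run of heat shock units had values on both sides of 0. Their log2 fold changes ran from −0.74 (Hspb1) to 0.60 (Dnajb4), with a median of −0.11 and 6 above 0. The 13 genes with a window and no such run had values from −0.66 (Trap1) to 0.23 (Hspa4l), a median of −0.07 and 5 above 0. Only exact units counted, so these 13 are not a set without heat induction, and they include Dnajb1. The 9 genes without a window, Hspa8 and Hsp90aa1 among them, are in neither set. Of the genes with 3 or more units, Chordc1 and Hsph1 were at 0.20 and 0.35, and Hspd1 and Hspe1, which share their run, at −0.16 and −0.32. None of these values was called by edgeR, and no test was made between the sets.

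A list of 92 other chaperone genes (further J-domain and BAG proteins, prefoldins, HSP90 co-chaperones, tubulin cofactors and mitochondrial proteases) had 90 members tested and 0 called by edgeR, whose smallest adjusted p in it was 0.21. An unadjusted p under 0.05 went to 4 higher and 8 lower, against 8.05% and 5.81% of all genes, and the groups did not overlap for 7 higher and 11 lower, against 12.2% and 9.79%. The median log2 fold change was −0.06. Only Hsf4 and Fkbp5 were called by DESeq2, at adjusted p-values of 0.0043 and 0.0075, both lower, 2 of 90 where 3.35% of all genes were called. Hsf4, an HSF1 relative best known from the lens, was at 3.17, 5.01 and 5.19 CPM on normal chow and 2.20, 1.68 and 1.32 CPM on PP-MP chow. Its groups were apart (log2 fold change −1.36, SE 0.30, edgeR adjusted p = 0.21). Fkbp5 (FKBP51), an HSP90 immunophilin induced by the glucocorticoid receptor that it restrains, was at 15.5, 17.6 and 26.7 CPM on normal chow and 10.8, 5.70 and 6.79 CPM on PP-MP chow. It too was lower in each PP-MP library (log2 fold change −1.36, SE 0.31, edgeR adjusted p = 0.21), while its relative Fkbp4 overlapped, a difference that was not tested.

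The remaining genes of smallest p in that list had edgeR adjusted p-values of 0.30 to 0.34. Lonp1, a protease of the mitochondrial matrix, was at 145 ± 13.5 CPM on normal chow and 98.3 ± 22.0 CPM on PP-MP chow, and Clpb, a mitochondrial disaggregase, at 46.6 ± 9.38 and 28.0 ± 8.22 CPM (SD, n = 3 per group), both without overlap. Clpx, the unfoldase of the mitochondrial ClpXP protease, was at 264 ± 78.2 and 160 ± 25.8 CPM, with control 3 inside the PP-MP range. Hspb6, a small heat shock protein, was at 20.1 ± 5.01 and 10.9 ± 4.15 CPM, and Pfdn2, a prefoldin subunit that hands clients to CCT, at 28.9 ± 5.47 and 16.3 ± 5.57 CPM. Tbce, a tubulin folding cofactor, was the 1 named gene on the higher side, at 10.3 ± 0.891 and 14.0 ± 1.71 CPM.

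Sums of 4 marker lists of other cells and states did not overlap between the diets. In bulk tissue a different number of cells of a type and a different amount of RNA per cell cannot be told apart. The 8 Kupffer cell and macrophage markers summed to 99.4 to 132 CPM on normal chow and 138 to 527 CPM on PP-MP chow, with 2 of 8 apart between the groups. Of all genes tested, 22% were apart (12.2% higher, 9.79% lower), the share to set beside this and the marker counts below. The 7 neutrophil markers summed to 1.31 to 1.86 and 3.15 to 24.4 CPM, with 3 of 7 apart, and PP-MP 1 was highest in both lists. Sums overlapped for hepatocyte (65631 to 78894 against 71510 to 84608 CPM), cholangiocyte (12.1 to 27.1 against 12.6 to 23.1), sinusoidal endothelial (91.4 to 116 against 87.4 to 148), stellate cell (295 to 304 against 266 to 425), lymphocyte (19.5 to 54.7 against 7.89 to 48.4, with 2 of 8 markers apart and lower), erythroid (266 to 510 against 392 to 768), muscle (5.95 to 7.65 against 5.65 to 7.56, with Ckm, Acta1 and Myh4, 3 of its 5 markers, at 0) and circadian clock genes (211 to 301 against 171 to 311). The cold-inducible pair Cirbp and Rbm3, whose level is known to follow body temperature, summed to 33.3 to 47.9 CPM on normal chow and 50.7 to 57.5 CPM on PP-MP chow. Of the 2 genes Rbm3 was apart, and Cirbp overlapped, at 9.22, 9.12 and 6.52 CPM on normal chow and 9.12, 10.4 and 11.5 CPM on PP-MP chow. Immediate early genes, which respond within minutes to handling, summed to 36.5 to 43.0 and 45.2 to 50.8 CPM, also apart. Of these genes 1 of 10 was apart, Egr1, at 2.95, 5.23 and 5.32 CPM on normal chow and 11.6, 13.5 and 9.57 CPM on PP-MP chow. Their mean log2 CPM relative to control overlapped, at −0.26 to 0.16 in control and −0.12 to 0.46 in PP-MP. The part of these lists in the values of Hspa8, Dnajb4, Hspb1 and Trap1 was not tested. All 4 kept their sign without PP-MP 1 and without each other library, which is not a test of the part of these lists.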

How the data were processed

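Liver RNA of 6 samples was measured by poly(A)-selected, directional RNA-seq, per the labels' protocols. The deposited values are raw read counts per gene, 1 table of 56674 rows, and the deposited per-sample files are identical to its columns. Base calls were converted with bcl2fastq and the build was GRCm39, per the submitters' processing notes. No source used here gives the aligner, counting tool, strand setting or annotation, and antisense or overlapping reads cannot be told apart. Counts were filtered with filterByExpr, scaled with TMM and tested with the robust quasi-likelihood test of edgeR 4.0.16 (R 4.3.3, limma 3.58.1), control against PP-MP, two-sided, adjusted over 18284 genes. SEs and 95% intervals come from the same fit. Log2 CPM used a prior count of 2. Alternatives were other scalings and filters, the DESeq2 1.42.0 test, limma-voom, a replicate block, a threshold of 0.1, removal of mitochondrial, haemoglobin and ribosomal RNA genes, and each library left out. Leaving out control 2 and PP-MP 1 together was added after seeing the data. The fit was tested on simulated data. The members, gene lists and naming rule were chosen with earlier results of these data known. Every member is named. Values in each library are given for the 12 of smallest p and for 10 chosen by name. The other pathway genes named are the 8 of smallest p with a mean CPM of at least 1, apart from those picked after their values were seen. Exon lengths and shared 50-base words come from GENCODE M21 (GRCm38), matched by symbol for 36 of 36 genes. Depth was 68357478 to 112566641 counts, so the spread between libraries sets the precision. Tables and figures used Python 3.11.15, pandas 2.3.3 and matplotlib 3.10.9.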

Additional observations from a re-analysis of the deposited data

How the results depend on the processing

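The count of chaperone genes called, 0, held in every edgeR setting and in limma-voom, and DESeq2 called 1. The block for replicate number gave 0 called, 4 with an unadjusted p under 0.05 (11.1%, against 9.94% of all genes) and a median of −0.06, and 0 genes over the whole table. Same-numbered libraries gave correlations of deviations of −0.0662, −0.0872 and 0.0470, which is no sign of pairing. Genes called over the whole table numbered 2, 708 with DESeq2, 1 with library totals and 1 with limma-voom, and 0 to 92 with 1 library left out (92 without control 2, 2 without PP-MP 3, 0 without each of the others). The chaperone genes with an unadjusted p under 0.05 numbered 3 to 7 with 1 library left out (7 without control 2, where 20.8% of all genes had one) and 7 without control 2 and PP-MP 1 together, where 17.6% of all genes had one. Those whose groups do not overlap numbered 13 with library totals (12 higher, 1 lower), 6 to 13 with 1 library left out (13 without control 2, 10 without control 1, PP-MP 1 or PP-MP 3) and 18 without both libraries, beside 27.1%, 27.9% to 44.1% and 53.4% of all genes. The median was 0.18 with library totals and −0.08 to 0.02 with 1 library left out. DESeq2 called 2 of the other chaperone genes.

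Fold changes of 21 of the 36 genes turned sign under some alternative, and Hspa8, Dnajb4, Hspb1 and Trap1 were not among them. Of 576 values, 525 kept sign and call. With library totals these turned: Hspa1b 0.14, Hspa4 0.20, Hspb8 0.12, Hspd1 0.073, Hsp90ab1 0.20, Dnaja2 0.11, Dnajb1 0.13, Bag3 0.0059, Stip1 0.16, Ptges3 0.13, Cct4 0.053, Cct7 0.15 and Cct8 0.11. Without control 2 and PP-MP 1 these did: Hspa4 0.12, Cryab −0.052, Dnaja2 0.034, Dnajb1 0.017, Stip1 0.024, St13 −0.19, Ptges3 0.049 and Cct4 0.14. Hsp90ab1 was at 0.0057 when genes needed a mean CPM of 1, and without any filter it was at 0.013 and Hspa4 at 0.0022. With 1 library left out, values crossed 0 for Hspa1b (−0.27 to 0.12), Hspa4 (−0.12 to 0.076), Hspa13 (−0.47 to 0.021), Hspb8 (−0.25 to 0.0197), Cryab (−0.068 to 0.20), Hsp90ab1 (−0.087 to 0.028), Dnaja1 (−0.078 to 0.23), Dnajb1 (−0.21 to 0.040), Stip1 (−0.17 to 0.039), St13 (−0.20 to 0.26), Ahsa1 (−0.020 to 0.17), Ptges3 (−0.19 to 0.018), Cct2 (−0.041 to 0.15), Cct3 (−0.061 to 0.23), Cct5 (−0.068 to 0.13) and Cct7 (−0.18 to 0.033). The cause was not tested.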

Other observations

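The genes of the wider chaperone list given here are outside the rule for named genes, and their values had been seen when they were picked. Hsf2, the other HSF of most tissues, was at 8.65, 14.1 and 5.89 CPM on normal chow and 14.8, 16.4 and 20.4 CPM on PP-MP chow. All PP-MP libraries were above all control libraries, opposite to Hsf4 (log2 fold change 0.85, SE 0.33, edgeR adjusted p = 0.34). Grpel2, a nucleotide exchange factor of mitochondrial HSP70, was also higher in each PP-MP library, at 30.8 ± 7.92 CPM on normal chow and 45.4 ± 6.45 CPM on PP-MP chow (SD, n = 3 per group). Its relative Grpel1 was at 121 ± 12.8 and 103 ± 15.5 CPM, and the mitochondrial J-domain gene Dnaja3 at 95.3 ± 14.5 and 80.5 ± 9.31 CPM. Clpp, the protease partner of Clpx, was at 46.4 ± 6.68 and 41.0 ± 5.69 CPM. Cct6a, the CCT subunit that the 7 described lack, was at 78.9, 87.9 and 92.7 CPM on normal chow and 77.4, 93.0 and 103 CPM on PP-MP chow, so its groups overlapped too.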
